A study of Mus musculus with 4 samples.

Results

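The regions described here are chromatin accessibility peaks around 20 genes of the p53 response in mouse alveolar epithelium after bleomycin injury. A peak was a member when its midpoint lay within 100 kb of the start of Trp53, Mdm2, Cdkn1a, Ccng1, Phlda3, Bax, Bbc3, Sesn1, Sesn2, Trp53inp1, Zmat3, Eda2r, Aen, Fas, Plk2, Btg2, Perp, Pmaip1, Gdf15 or Rrm2b. The rule used positions only and no measured value. It took 487 of 116075 peaks in the Control library and 508 of 125793 in the library labelled CKO. Merged where peaks of both libraries overlapped, they gave 424 shared regions of 97973, and 231 of the 424 held at least 100 counts in alveolar nuclei. The member nearest inside the window edge, at -99764 bases from the Rrm2b start, had levels of 0.294 and 0.340, and the first region outside, at 100304 bases from Btg2, had 1.46 and 1.32. A level is the number of counts in a region per 100000 counts of that library and cell class in all shared regions, given for Control first and CKO second throughout.

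Both libraries came from lungs of male mice 8 days after bleomycin, a drug that breaks DNA and injures the alveolus. Cells carrying GFP were sorted as alveolar type 2 (AT2) cells, the surfactant-making progenitors of the alveolus, and their nuclei were profiled for RNA and open chromatin together. The Control genotype was SftpcCreERT2; Rosa26mTmG, in which a tamoxifen-inducible Cre under the Sftpc locus switches a membrane reporter to GFP in AT2 cells and their progeny. The CKO genotype carried the same alleles and IPF/F, a floxed allele of the prostaglandin I2 receptor. Each genotype had 1 joint library, its 2 parts listed as 2 of the 4 samples, and differences between genotypes were therefore given as values with no replicate error and no test. The labels give neither the number of mice nor their age. Ratios carry a 95% interval that covers counting error only, since neither variation between mice nor PCR copies of a fragment enter it.

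The p53 protein, made from Trp53, is a transcription factor that is held low by the ubiquitin ligase Mdm2 and accumulates after DNA damage. As a tetramer it binds response elements built of pairs of 10-base half-sites and raises transcription of genes for cell cycle arrest, apoptosis and repair. In injured alveoli, p53 activity and its target Cdkn1a, which encodes the cyclin-dependent kinase inhibitor p21, are known marks of the transitional cells that AT2 cells pass through on the way to flat alveolar type 1 (AT1) cells. ATAC-seq reads openness of DNA to a transposase, so it shows where an element is accessible and not whether p53 is bound.

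The promoter sequences of 5 members show the kinds of element these peaks cover. Each is the 250 bases upstream of the RefSeq transcription start, from RefSeq on GRCm38.p6, printed 5′ to 3′ on the gene's strand. Capitals mark matches to the p53 half-site consensus in Cdkn1a, Mdm2, Ccng1 and Bax, and to the AP-1 motif TGANTCA in Fas, the promoter with the lowest ratio between the libraries.
Cdkn1a: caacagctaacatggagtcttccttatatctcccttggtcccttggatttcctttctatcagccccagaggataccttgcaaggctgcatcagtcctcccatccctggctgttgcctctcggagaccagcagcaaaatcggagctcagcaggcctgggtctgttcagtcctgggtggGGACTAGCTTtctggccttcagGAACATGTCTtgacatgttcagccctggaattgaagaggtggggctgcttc
Mdm2: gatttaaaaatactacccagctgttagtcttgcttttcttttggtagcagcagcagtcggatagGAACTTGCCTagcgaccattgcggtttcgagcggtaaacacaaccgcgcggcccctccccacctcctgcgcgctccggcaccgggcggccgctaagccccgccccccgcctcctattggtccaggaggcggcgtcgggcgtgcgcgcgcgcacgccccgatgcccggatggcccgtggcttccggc
Ccng1: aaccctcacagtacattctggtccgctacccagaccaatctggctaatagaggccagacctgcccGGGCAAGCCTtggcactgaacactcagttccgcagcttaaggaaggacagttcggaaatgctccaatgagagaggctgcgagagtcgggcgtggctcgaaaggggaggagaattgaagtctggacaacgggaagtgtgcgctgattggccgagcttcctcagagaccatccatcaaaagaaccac
Bax: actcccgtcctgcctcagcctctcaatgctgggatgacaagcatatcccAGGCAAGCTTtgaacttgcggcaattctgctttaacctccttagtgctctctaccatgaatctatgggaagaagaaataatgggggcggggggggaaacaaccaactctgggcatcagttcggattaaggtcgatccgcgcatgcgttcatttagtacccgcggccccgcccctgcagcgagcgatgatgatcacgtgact
Fas: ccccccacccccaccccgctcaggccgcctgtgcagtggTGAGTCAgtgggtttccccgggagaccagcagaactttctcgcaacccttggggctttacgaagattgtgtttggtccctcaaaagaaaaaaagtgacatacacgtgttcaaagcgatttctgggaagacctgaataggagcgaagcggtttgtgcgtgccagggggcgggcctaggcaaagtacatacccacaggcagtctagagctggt

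All 5 sequences lie inside peaks of both libraries, with Cdkn1a at chr17:29090729-29090978 (plus strand), Mdm2 at chr10:117710759-117711008 (minus strand), Ccng1 at chr11:40755287-40755536 (minus), Bax at chr7:45466899-45467148 (minus) and Fas at chr19:34290409-34290658 (plus). The Cdkn1a sequence holds 2 half-sites, from -73 to -64 and from -51 to -42 counted from its start. RefSeq held a promoter sequence for 15 of the 20 genes, and not for Perp, Pmaip1, Rrm2b, Trp53inp1 and Zmat3. Counting 1 start per gene, that at or nearest the start in the files, and either strand, the p53 half-site occurred in 5 of the 15 (Bax, Ccng1, Cdkn1a, Mdm2 and Trp53) and in 7.18% of 27025 mouse promoters of the same length. The AP-1 motif TGANTCA occurred in 1 of the 15 (Fas, from -211 to -205) and in 6.87% of all. The cyclic AMP element TGACGTCA stood in 2 (Btg2 and Plk2) against 1.62%, CCAAT in 8 against 34.5%, the GC box GGGCGG in 10 against 32.9%, and the E-box CACGTG in 2 (Bax and Fas) against 6.05%. At other RefSeq starts of these genes the half-site also occurred in Aen and Sesn1, and CACGTG in Bbc3, Aen and Gdf15. These matches are descriptions of letters and not measured binding sites. The Cdkn1a sequence had a GC content of 54.0% and 2 CpG, against 64.8% and 19 CpG at the gene's second RefSeq start, and medians of 52.0% and 6 CpG over all promoters.

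The libraries differed in depth and makeup. Of 13569 and 10925 barcodes, nuclei passing the quality limits were 2173 in Control and 3883 in CKO. The median share of mitochondrial UMIs over all barcodes was 24.2% and 16.6%, so the 20% limit lay below the Control median and above that of CKO. Named from RNA markers, alveolar nuclei were 2050 (94.3%) and 2320 (59.7%), with 9174366 and 10881435 counts in shared regions. AT2-like nuclei numbered 1559 and 1244, transitional-like 304 and 650, AT1-like 163 and 409, and cycling alveolar nuclei 24 and 17. The AT2-like class came mostly from different clusters, since cluster 0 held 125 and 1178 of its nuclei, cluster 2 held 779 and 10, and cluster 3, led by ribosomal RNA genes, held 655 and 56. Of these clusters and those of the transitional-like and AT1-like classes, only cluster 0 had list markers among its 10 leading genes. Sftpc, the AT2 surfactant gene, stood at 99.9 and 192 CPM (UMIs relative to all nuclear-encoded UMIs) in AT2-like and 17.3 and 49.1 in transitional-like nuclei. Cldn4, a transitional marker, stood at 9.10 and 10.4 CPM in AT2-like, 93.2 and 110 in transitional-like and 114 and 114 in AT1-like nuclei. Krt8 stood at 262 and 273 CPM in AT2-like against 224 and 292 in transitional-like nuclei, and so did not separate these classes in Control. In AT1-like nuclei Krt8 stood at 310 and 525 CPM. On the transitional marker list the AT1-like cluster scored 1.02 and the transitional-like cluster 0.59, so these markers were not particular to transitional-like nuclei. Summed over 8 leukocyte and endothelial markers, alveolar nuclei held 52.7 and 147 CPM, with 3 and 0 of the 8 at 0, and the part of such RNA in the results was not tested. Promoters of all genes took 48.8% of alveolar counts in Control and 43.7% in CKO. Ptgir, the targeted receptor gene, had 0 and 2 UMIs in alveolar nuclei, too few to check the label.

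The promoters of the p53 genes were, as a group, less accessible in the library labelled CKO than in Control. Summed over the 22 promoter regions (midpoint within 1000 bases of a start), the level was 93.2 in Control and 77.2 in CKO, a log2 ratio of -0.27 (95% interval -0.33 to -0.21). Promoters of all genes lay on the same side by less, with a summed log2 ratio of -0.16. Promoters of AT2 identity genes gave -0.23 (interval -0.32 to -0.14), of AT1 identity genes -0.20 (-0.33 to -0.072) and of AP-1 and immediate early genes -0.21 (-0.28 to -0.13). Those intervals overlap that of the p53 genes. Among the 19 p53 gene regions with at least 100 counts the median was -0.34, against -0.12 over 12467 promoters. Of the 19, 5 were higher and 14 lower, where 62.9% of all promoters were lower. At 1.5-fold or more, 0 were higher and 2 were lower, where 4.33% and 8.72% of all promoters passed. Scaled instead to counts in promoters of all genes, a choice made after seeing the data, the median was -0.19 and 0 passed either way. The ratio moved with coverage over all promoters, whose median was 0.028 from 100 to 300 counts, -0.047 to 600, -0.14 to 1200 and -0.27 above. In the same bins the p53 gene promoters gave -0.53 (1 region), -0.14 (4), -0.34 (11) and -0.30 (3).

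**Figure D1:**
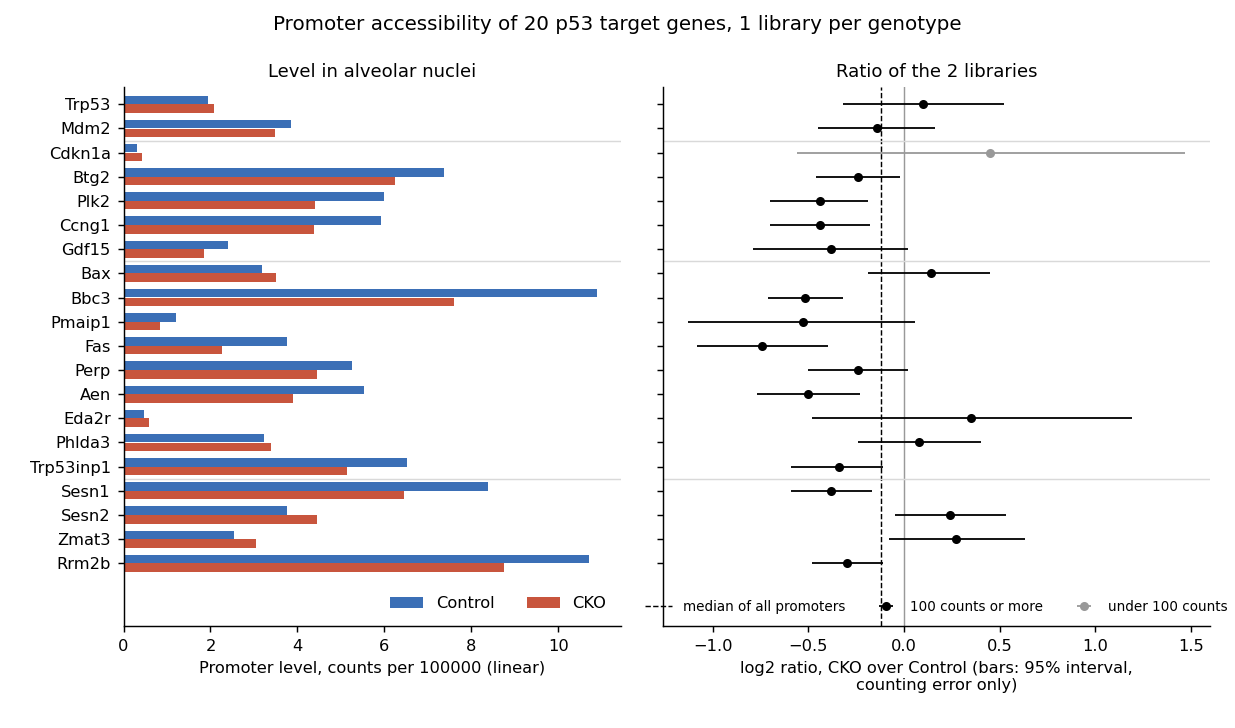
Promoter accessibility of the 20 genes, ordered by role. The left panel gives the level in alveolar nuclei (counts per 100000, linear axis) in the 1 library of each genotype, and the right panel the log2 ratio of CKO over Control with its 95% counting interval, the dashed line being the median of all promoters at -0.12. Fas has the lowest ratio (-0.74), and the intervals of Bbc3, Aen, Plk2 and Ccng1 also end below 0.

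Trp53 itself and Mdm2 differed little at their promoters. The Trp53 promoter, at chr11:69579969-69580818, held 178 and 226 counts, levels of 1.94 and 2.08 (log2 ratio 0.098, interval -0.32 to 0.52). The Mdm2 promoter, at chr10:117710359-117711139, held 353 and 380 counts, levels of 3.85 and 3.49 (log2 -0.14, interval -0.45 to 0.16). Both intervals include 0, and a difference of the size seen for Fas lies outside each of them on the lower side.

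In the group of cell cycle genes and the stress cytokine Gdf15, the promoters of Plk2, Ccng1 and Btg2 had ratios with intervals below 0. Plk2, a polo-like kinase of the damage response, stood at 5.98 and 4.40 (549 and 479 counts, log2 -0.44, interval -0.70 to -0.19). Ccng1, encoding the p53-induced cyclin G1, stood at 5.93 and 4.37 (544 and 475 counts, log2 -0.44, interval -0.70 to -0.18). Btg2, an antiproliferative co-regulator, stood at 7.38 and 6.25 (log2 -0.24, interval -0.46 to -0.021). Its interval also holds the median of all promoters (-0.12), which those of Plk2 and Ccng1 leave out. With 677 and 680 counts, Btg2 lay above the median of promoters with 1200 counts or more (-0.27). For Gdf15 the values were 2.41 and 1.86 (log2 -0.38, interval -0.79 to 0.020), with an interval that includes 0. Cdkn1a had a barely open start region, with 29 and 47 counts, levels of 0.316 and 0.432 and a log2 ratio of 0.45 (interval -0.56 to 1.47), which settles no direction. Per kb of called peak its order turned, to 0.406 and 0.352, the only one of the 20 promoters for which it did, because CKO peaks covered more bases there.

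Among the 9 apoptosis genes, Fas and Bbc3 stood lowest of those with narrow intervals. The promoter of Fas, which encodes a death receptor, held 346 and 246 counts, levels of 3.77 and 2.26 (log2 -0.74, interval -1.08 to -0.40). The promoter regions of Bbc3, which encodes the BH3-only killer PUMA, held 997 and 827 counts, levels of 10.9 and 7.60 (log2 -0.52, interval -0.71 to -0.32). Aen, a p53-induced exonuclease gene, stood at 5.52 and 3.89 (log2 -0.50, interval -0.77 to -0.23), and Trp53inp1, a cofactor of p53, at 6.51 and 5.13 (log2 -0.34, interval -0.59 to -0.11). Those 4 promoters had intervals below 0. The median of all promoters (-0.12) lies inside the interval of Trp53inp1 and outside those of Fas, Bbc3 and Aen. The promoter of Pmaip1, encoding the BH3-only protein NOXA, had 111 and 91 counts and a log2 ratio of -0.53 with an interval from -1.13 to 0.059. Perp, a membrane protein gene, gave -0.24 (interval -0.50 to 0.023). Bax, the pore-forming effector, stood at 3.19 and 3.51 (log2 0.14, interval -0.19 to 0.45), and with no limit on the mitochondrial share its ratio was 0.54. Phlda3, an inhibitor of Akt, gave 0.077 (interval -0.24 to 0.40), and Eda2r, a death receptor gene on the X chromosome, 0.35 (interval -0.48 to 1.19) from 43 and 65 counts.

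The stress and repair genes split. Sesn1, which encodes a sestrin that restrains growth signalling, stood at 8.38 and 6.45 (769 and 702 counts, log2 -0.38, interval -0.59 to -0.17). Rrm2b, the p53-induced ribonucleotide reductase subunit that supplies nucleotides for repair, stood at 10.7 and 8.74 (984 and 951 counts, log2 -0.30, interval -0.48 to -0.11). The Rrm2b interval holds the median of all promoters (-0.12). The intervals of Sesn1 and Rrm2b both hold the median of promoters with 1200 counts or more (-0.27). Sesn2, the other sestrin gene here, lay on the other side, at 3.76 and 4.44 (345 and 483 counts, log2 0.24, interval -0.049 to 0.53). Zmat3, an RNA-binding p53 effector gene, was at 2.53 and 3.05 (log2 0.27, interval -0.080 to 0.63). Per kb, the Rrm2b promoter had a level of 11.7 in Control and 9.65 in CKO, the highest of the 20 in both.

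Within each alveolar state the promoters of the 20 genes stood lower in CKO. Their summed levels were 91.8 and 73.2 in AT2-like (log2 -0.33, interval -0.40 to -0.25), 103 and 85.4 in transitional-like (log2 -0.28, interval -0.42 to -0.14), and 90.6 and 77.1 in AT1-like nuclei (log2 -0.23, interval -0.42 to -0.045). All promoters gave -0.17, -0.15 and -0.10. In AT2-like nuclei the value was below 0 in each cluster, at -0.34 (interval -0.51 to -0.16) in cluster 0, -0.61 (-1.57 to 0.19) in cluster 2 and -0.30 (-0.60 to -0.0035) in cluster 3, beside -0.18, -0.15 and -0.15 for all promoters. Of 19 promoter regions with 100 counts in AT2-like nuclei, 4 were lower and 0 higher at 1.5-fold, where 10.1% and 3.88% of all promoters passed.

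By state, single promoters had the following values, with intervals that overlap between states. Fas stood at 4.01 and 2.08 in AT2-like nuclei (285 and 125 counts, log2 -0.95, interval -1.39 to -0.50) and at 2.75 and 2.75 in transitional-like nuclei (33 and 74 counts, log2 0.0012, interval -0.91 to 0.88). The Pmaip1 promoter had 84 and 31 counts in AT2-like nuclei (log2 -1.20, interval -2.08 to -0.29). Gdf15 gave -0.73 there (interval -1.28 to -0.19). In transitional-like nuclei Bbc3 stood at 13.8 and 8.19 (log2 -0.76, interval -1.18 to -0.33) and Plk2 at 8.42 and 4.88 (log2 -0.79, interval -1.34 to -0.24), and in AT1-like nuclei Bbc3 stood at 13.1 and 6.33 (log2 -1.05, interval -1.61 to -0.49). Both were also lower in AT2-like nuclei, Bbc3 by a log2 ratio of -0.37 (interval -0.61 to -0.13) and Plk2 of -0.47 (interval -0.80 to -0.13). Whether the ratio differs between states was not tested.

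Taken over whole windows, the members lay near the values of all regions. Over all 231 member regions with 100 counts the median log2 ratio was 0.087, against 0.053 over 44003 regions, and 40 members (17.3%) were 1.5-fold or more higher in CKO and 9 (3.90%) lower, beside 15.4% and 7.47% of all regions. Summed, the members took nearly the same level in both libraries, 598 and 600 (log2 0.0061, interval -0.017 to 0.029). Of the 40 higher regions, 33 were distal, 7 were promoters of other genes and 0 were promoters of the 20. The 9 lower ones were 3 distal, 4 other promoters and 2 of the 20. Over all regions 6231 of the 6771 higher and 2202 of the 3289 lower ones were distal, so higher regions were mostly distal there too. Distal members had a median of 0.18 (all distal regions 0.14) and promoters of other genes -0.071. The sign of the median over members depended on depth, being -0.05 with at least 200 counts a region and 0.18 with at least 50.

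**Figure D2:**
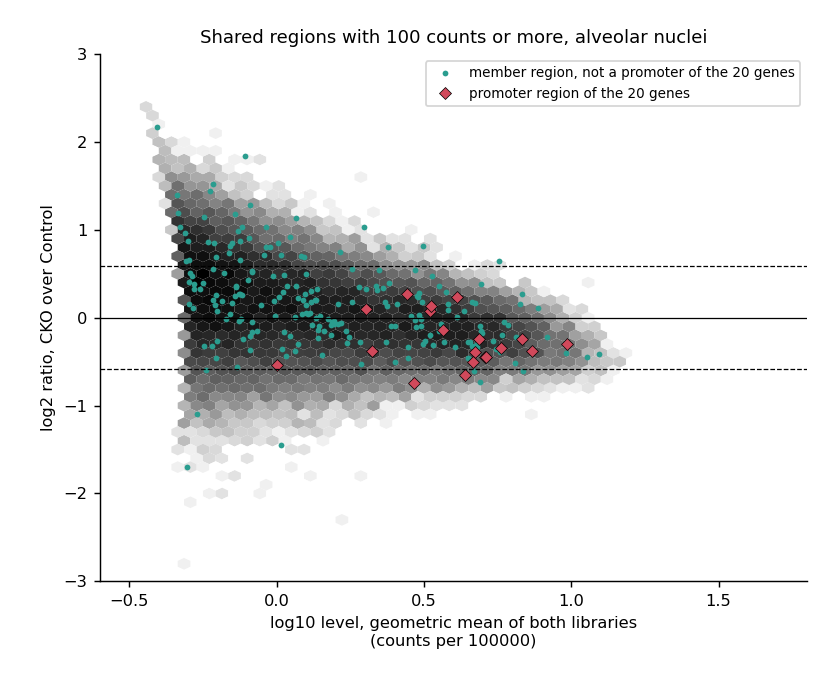
Log2 ratio of CKO over Control against the log10 of the geometric mean level, for shared regions with at least 100 counts in alveolar nuclei. Grey cells count all 44003 regions, dots are members, diamonds are promoter regions of the 20 genes, and dashed lines mark 1.5-fold. Diamonds sit at high levels and mostly below 0, and members past the upper line lie mainly at low levels.

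In AT2-like nuclei the members' median was 0.015, with 20 of 185 regions higher and 11 lower at 1.5-fold (all regions 10.6% and 9.30%). Transitional-like nuclei gave a median of -0.067, with 6 of 82 higher and 11 lower (6.57% and 12.7% of all). AT1-like nuclei gave -0.14, with 5 of 50 higher and 9 lower (7.92% and 13.6% of all). In these 3 states the members' shares lay close to those of all regions.

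Among members with at least 200 counts, those ranked highest and lowest by the interval bound nearest 0 were mostly promoters, a ranking that favours well-covered regions. In the Sesn2 window, the Med18 promoter at 46520 bases held 127 and 309 counts, levels of 1.38 and 2.84 (log2 1.04, interval 0.60 to 1.47). A distal region of the same window at 35766 bases held 72 and 187 counts (log2 1.13, interval 0.57 to 1.74). Near Bax, the Snrnp70 promoter held 417 and 772 counts (log2 0.64, interval 0.39 to 0.89), near Trp53 the Mpdu1 promoter 218 and 454 (log2 0.81, interval 0.48 to 1.16), and near Gdf15 the Gm16486 promoter 165 and 343 (log2 0.81, interval 0.42 to 1.20). At -72720 bases from Btg2 a distal region held 59 and 143 counts (log2 1.03, interval 0.38 to 1.68). These 6 were the highest by the interval bound nearest 0.

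Lowest of all members was a distal region at 73917 bases from Pmaip1, with 157 and 68 counts, levels of 1.71 and 0.625 (log2 -1.45, interval -2.09 to -0.87). Its AT2-like levels were 1.93 and 0.598 and its transitional-like levels 0.667 and 0.670, where the counts were 8 and 18 and the interval ran from -1.84 to 2.16, too wide to show a difference between the states. Next came the Inafm1 promoter near Bbc3 (log2 -0.74, interval -1.0 to -0.48), the Fas promoter, and the Isg20 promoter near Aen, with 778 and 605 counts (log2 -0.61, interval -0.83 to -0.39). A second Bbc3 promoter region, at chr7:16309933-16310648, held 501 and 379 counts (log2 -0.65, interval -0.93 to -0.37). In the Mdm2 window the promoter of Cpm, a carboxypeptidase gene, held 530 and 414 (log2 -0.60, interval -0.87 to -0.33).

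Summed over each window, Sesn2 stood highest, at 30.7 and 40.0 (log2 0.38, interval 0.28 to 0.48). The sparse Eda2r window followed, at 0.796 and 1.01 (log2 0.35), with an interval from -0.30 to 0.97 that includes 0, and then Cdkn1a at 30.9 and 37.2 (log2 0.27, interval 0.17 to 0.36). The Fas window stood at 9.71 and 11.5 (log2 0.25, interval 0.070 to 0.43), opposite to its promoter. Aen was lowest, at 21.3 and 16.0 (log2 -0.41, interval -0.54 to -0.28), then Ccng1 at 19.4 and 16.3 (log2 -0.25, interval -0.39 to -0.11). Sesn1 (-0.17), Bbc3 (-0.16), Trp53inp1 (-0.15) and Gdf15 (-0.093) also had intervals below 0, and Trp53 (0.17), Btg2 (0.16) and Bax (0.089) intervals above 0. The Mdm2 window was near equal, at 37.7 and 35.7 (log2 -0.077, interval -0.17 to 0.017). A window sum mixes genes, since the region with the most counts was a promoter of the gene itself in 7 windows, of another gene in 10 and distal in 3. In the Gdf15 window the region with the most counts was the promoter of Jund, an AP-1 gene, with 1208 and 1051 counts, levels of 13.2 and 9.66 (log2 -0.45, interval -0.62 to -0.27).

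**Figure D3:**
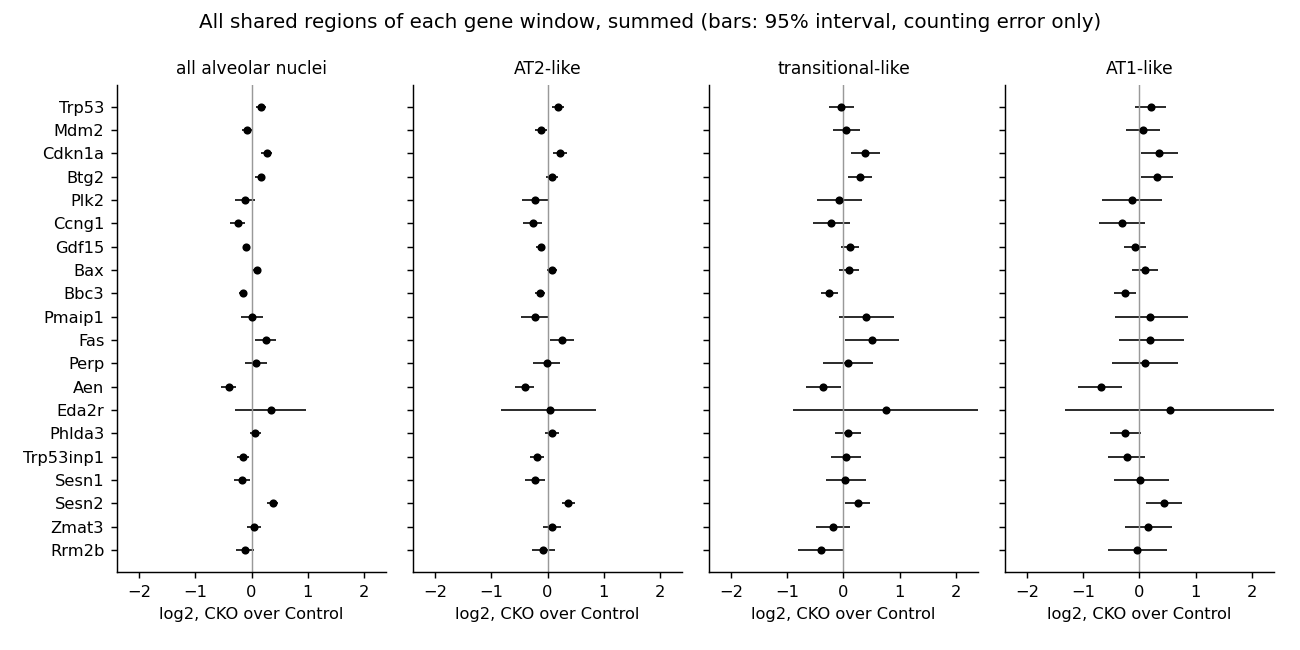
Log2 ratio of CKO over Control for all shared regions of each gene window summed, over all alveolar nuclei and in the 3 states, with 95% counting intervals (those of Eda2r run past the axis in transitional-like and AT1-like nuclei). Sesn2 and Cdkn1a lie above 0 and Aen below 0 in each panel.

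Cdkn1a had few counts at its start, and those it had lay mostly in transitional-like and AT1-like nuclei in both libraries. Per kb its promoter level (0.406 and 0.352) and that of Eda2r (0.368 and 0.517) were the lowest of the 20, where Rrm2b had the highest. The start region, at chr17:29090604-29091946, covers the sequence with 2 half-sites printed above and was singled out after its values were seen. In AT2-like nuclei it held 7 and 14 counts, levels of 0.0984 and 0.233. In transitional-like nuclei it held 8 and 25 counts, levels of 0.667 and 0.930, and in AT1-like nuclei 14 and 7 counts, levels of 1.90 and 0.343. Non-alveolar nuclei held 2 and 40 counts in the region, levels of 0.388 and 0.638. The level in transitional-like nuclei exceeded that in AT2-like nuclei in both libraries, by a log2 ratio of 2.76 in Control (interval 0.14 to 4.99) and 1.99 in CKO (interval 0.61 to 3.61). Cdkn1a RNA was among the markers that name transitional-like clusters, and without the nuclei holding a Cdkn1a UMI the ratios were 2.58 (interval -1.26 to 5.45) and 2.85 (interval 0.39 to 6.39), with the Control interval then including 0. The Control interval also included 0 at Leiden resolution 1.0 (2.37, -0.25 to 4.60) and with the p53 genes left out of the variable genes (2.50, -0.12 to 4.73). AT1-like over AT2-like gave 4.26 in Control (interval 2.09 to 6.29) and 0.55 in CKO from those few counts. The CKO interval, -1.48 to 2.71, included 0.

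The second RefSeq start of Cdkn1a held many more counts in a shorter region. The region around it, at chr17:29093286-29094212, held 486 and 467 counts, levels of 5.30 and 4.29 (log2 -0.30 between the libraries). Its transitional-like over AT2-like ratios were -0.25 in Control (interval -0.89 to 0.33) and 0.29 in CKO (interval -0.17 to 0.73), both including 0. The region downstream, at chr17:29094996-29095882 and the one with the most counts in the window, held 396 and 615, levels of 4.32 and 5.65 (log2 0.39, interval 0.13 to 0.66). Of 17 regions with 100 counts around Cdkn1a, 6 were higher in CKO at 1.5-fold and 0 lower (15.4% and 7.47% of all regions), with a median log2 ratio of 0.34.

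**Figure D4:**
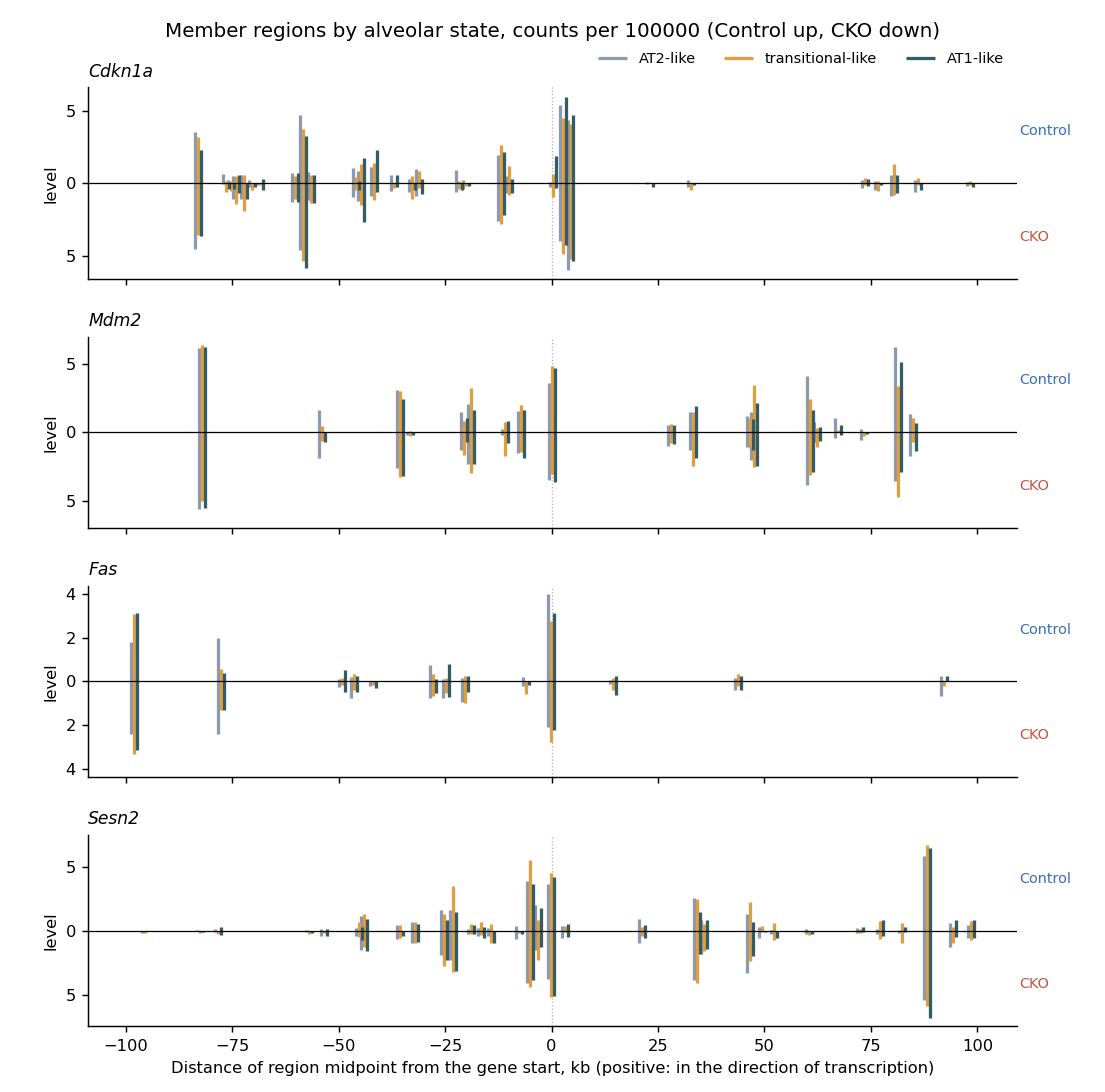
Levels of member regions (counts per 100000, vertical axis) by distance of the midpoint from the gene start in kb, for the windows of Cdkn1a, Mdm2, Fas and Sesn2. Bars for AT2-like, transitional-like and AT1-like nuclei are offset sideways, with Control drawn up and CKO down. The Cdkn1a start region is low beside the regions just downstream, and the Fas promoter is taller in Control AT2-like nuclei than in any state of CKO.

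Across states within a library, the promoters of the 20 genes were slightly more open in transitional-like than in AT2-like nuclei, in both libraries. Summed, the log2 ratio was 0.16 in Control (interval 0.033 to 0.28) and 0.21 in CKO (interval 0.11 to 0.31), where all promoters gave 0.015 and 0.017. Medians over the regions with 100 counts were 0.25 and 0.18, against -0.0091 and 0.016 for all promoters, with 16 of 20 and 14 of 18 above 0, beside 5200 of 10607 and 5573 of 10658 promoters overall. Counted by gene, 15 of 20 promoters were higher in both libraries and 1 (Sesn1) lower in both, a count not made over all promoters. The 15 include Cdkn1a and Eda2r, which had few counts, and Zmat3 at 0.0045 in CKO. Of 18 promoter regions with 100 counts in each library, 13 had the same sign in both, beside 55.9% of all promoters. Over those regions Pearson's r between the libraries was -0.025, beside 0.28 over all promoters. Of 23 promoter regions of a wider list of 24 p53 pathway genes, described below, 8 (34.8%) had the same sign, with an r of -0.14. In AT1-like over AT2-like nuclei the promoters of the 20 genes gave a summed -0.029 (interval -0.19 to 0.13) and 0.060 (interval -0.060 to 0.18), both including 0. Over whole windows, member peaks had medians of 0.012 and 0.085 in transitional-like over AT2-like nuclei, against -0.091 and -0.037 over all peaks. For scale, peaks in the whole windows of 12 AT2 identity genes had medians of -0.40 and -0.37. Windows of AT1 identity genes gave -0.11 and -0.06, and those of AP-1 and immediate early genes 0.0051 and -0.024. The wider p53 list gave -0.023 and 0.022.

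RNA ratios of transitional-like over AT2-like nuclei were above the promoter ratios for the genes named here other than Cdkn1a. Of the 19 genes with at least 100 UMIs (all but Pmaip1), 16 had RNA 1.5-fold or more higher in transitional-like nuclei in both libraries and 0 lower, where 17.0% of 9298 genes passed upward. The clusters were made from this RNA, so the count is a description. Mdm2 RNA was higher by log2 2.13 in Control and 2.57 in CKO while its promoter ratios were 0.43 and -0.22. Fas RNA was higher by 2.52 and 1.43 with promoter ratios of -0.54 and 0.39, and Ccng1 RNA by 1.62 and 1.03 with 0.24 and 0.20. Cdkn1a RNA was higher by 0.97 and 1.23, with its start region at 2.76 and 1.99. In AT1-like over AT2-like nuclei 5 of the 19 passed upward in both libraries, beside 13.0% of all genes.

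**Figure D5:**
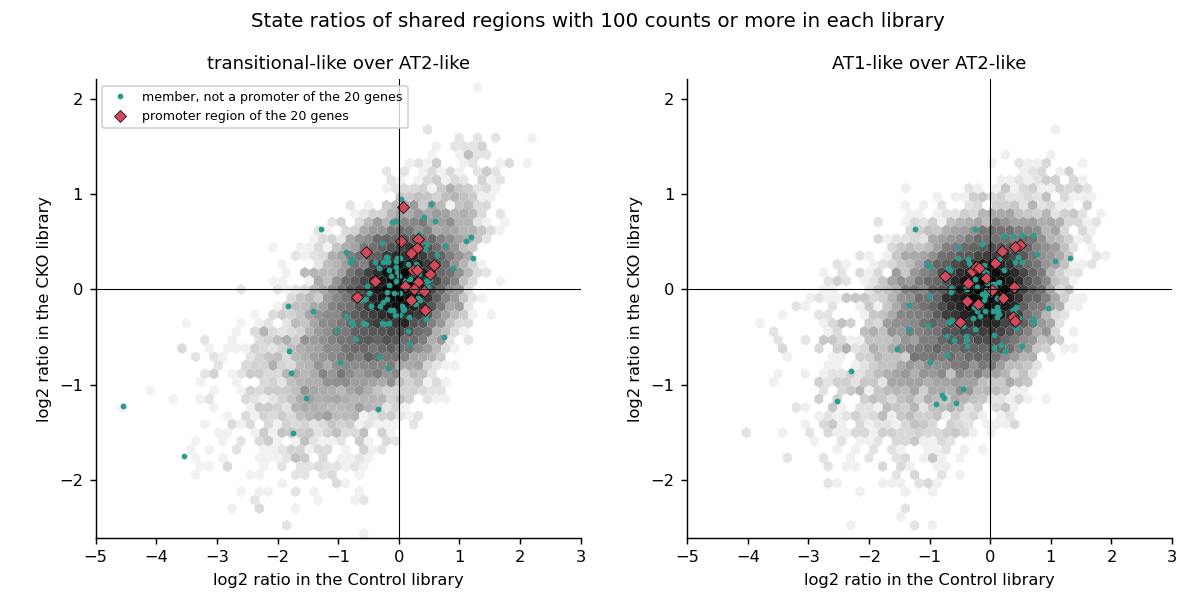
Log2 state ratios of shared regions in the Control library (horizontal) and in CKO (vertical), transitional-like over AT2-like on the left and AT1-like over AT2-like on the right, for regions with at least 100 counts in each library, leaving out those with 0 counts in a class. Grey cells are all regions, dots members and diamonds promoter regions of the 20 genes. On the left most diamonds lie right of and above 0.

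Past 1.5-fold in both libraries, transitional-like over AT2-like, 1 of 128 members was higher and 8 were lower (2.29% and 9.23% of all regions), and for AT1-like 0 of 120 were higher and 10 lower (1.65% and 8.46% of all). Low-count regions entered when the call was instead an interval beyond 0 in both libraries, a rule chosen after the values were seen. Then 10 of 424 members (2.36%) were higher in transitional-like nuclei and 7 (1.65%) lower, where 2.69% and 1.30% of all regions were. For AT1-like nuclei 3 of 424 (0.708%) were higher and 4 (0.943%) lower, beside 1.65% and 0.594%. The transitional-like shares lay near those of all regions. The AT1-like shares rest on 3 and 4 regions, with the higher share below that of all regions and the lower share above it.

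Of the 10 regions with a higher level in transitional-like nuclei 8 were distal, as were 2499 of the 2634 such regions overall. They included regions at -95195 bases from Sesn1 (log2 3.67 and 3.03), at 82216 and 52180 bases from Sesn2 (4.38 and 2.68, then 3.38 and 1.67), at -82439 bases from Btg2 (2.52 and 1.85), at -52277 bases from Zmat3 (2.02 and 1.58) and at 51190 bases from Bax (1.07 and 1.45). Close to Plk2, a region at -2484 bases gave 1.53 and 1.63, and another at 63698 bases had 0 AT2-like counts in Control and gave 3.15 in CKO. The start region of Cdkn1a was the only promoter of the 20 genes among the 10. The region at -1044 bases from Trp53 spans the start of Wrap53, the gene that runs the other way from there, with AT2-like levels of 2.61 and 3.71 and transitional-like levels of 6.0 and 5.47 (log2 1.20, interval 0.60 to 1.77, and 0.55, interval 0.11 to 0.99). A region at -10884 bases from Mdm2, with 32 and 74 alveolar counts, gave 1.65 (interval -0.20 to 3.45) and 3.35 (interval 1.93 to 5.10), and was also named after its values were seen.

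Regions more open in AT2-like than in transitional-like nuclei included one at -33514 bases from Trp53, with AT2-like counts of 138 and 97 and transitional-like counts of 2 and 13 (log2 -3.54, interval -8.86 to -1.01, and -1.75, interval -3.04 to -0.51). The region at -53972 bases from Mdm2 had AT2-like counts of 119 and 113 and transitional-like counts of 6 and 18 (log2 -1.74 and -1.50), and at -77612 bases from Fas the ratios were -1.77 and -0.88. The Pde4c promoter in the Gdf15 window gave -1.52 and -1.13, and a region at 69422 bases from Gdf15 -4.55 and -1.22. At -53472 bases from Trp53inp1 the transitional-like count in Control was 0, which allows a level of up to 0.50 (3 fragments, or 6 counts), and the CKO ratio was -1.05. The Mdm2 region at 67270 bases gave -2.62 in Control and a transitional-like count of 0 in CKO, which allows a level of up to 0.223.

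Between AT1-like and AT2-like nuclei, the 3 regions higher in both libraries lay at -35202 bases from Ccng1 (log2 5.26 and 3.55), at 29656 bases from Aen (3.57 and 2.32) and at -49944 bases from Gdf15 (2.13 and 0.91). By the rule that takes regions with at least 100 counts in each library, the highest in AT1-like nuclei were a region at -20242 bases from Btg2 (0.70 and 0.57), the promoters of Trp53 (0.50 and 0.47) and Bax (0.41 and 0.44), and 3 more regions near Bbc3, Fas and Mdm2. The intervals of both promoters included 0 in each library (Trp53 -0.57 to 1.53 and -0.25 to 1.15, Bax -0.47 to 1.20 and -0.091 to 0.98). That of the Btg2 region included 0 in Control (-0.026 to 1.43). The same rule put a region at -14596 bases from Bbc3 highest in transitional-like nuclei (0.59 and 0.72), with a Control interval of -0.13 to 1.31. This rule used the ratios and not the intervals.

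Between the libraries, promoter accessibility and RNA of the 20 genes did not follow each other. RNA in alveolar nuclei was higher in CKO for 16 of 20 genes, with a median log2 ratio of 0.45, the same as the 0.44 over 9298 genes within 0.01. Perp RNA gave 1.31, Ccng1 1.17 (72.8 and 164 CPM), Phlda3 1.13 and Bax 0.96, while Gdf15 gave -1.42 (62.8 and 23.5 CPM). Signs matched for 11 genes, and 9 had a lower promoter level with higher RNA, Ccng1 among them. Neither measure was centred on 0, as the median was -0.12 over all promoters and 0.44 over the RNA of all genes. A lower promoter with higher RNA is therefore also the direction of both medians, and the same counts over all genes were not made. Across the 20 genes, which share both libraries and are not independent replicates, Pearson's r was 0.021 and Spearman's rho -0.084.

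Some members were called as peaks in 1 library only. Of the Control members 87.3% overlapped a CKO peak, and of the CKO members 84.1% overlapped a Control peak, beside 84.7% and 78.2% of all peaks. The remaining 62 Control members were distal in 56 cases, with a median of 14.5 alveolar counts, and the 81 CKO members in 79 cases, with a median of 11. Non-alveolar nuclei held 63.5% of the counts in the members called only in CKO, against 40.7% in all CKO members and 37.9% in all CKO peaks. Such nuclei were 40.3% of those kept in that library. The distal and non-alveolar shares over all peaks called in 1 library only were not computed, so these values do not set the members apart.

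A wider list of 24 p53 pathway genes gave 515 shared regions with a median of 0.095 over the 323 with 100 counts, of which 45 (13.9%) were higher and 13 (4.02%) lower at 1.5-fold, beside the 15.4% and 7.47% of all regions. Its promoters had a median of -0.23 and a summed log2 ratio of -0.16 (interval -0.22 to -0.11), the same as all promoters. Gadd45a, a damage-induced repair factor gene, stood at 7.76 and 5.73 at its promoter (log2 -0.44, interval -0.66 to -0.21), and Apaf1, the apoptosome gene, at 10.1 and 7.38 (log2 -0.45, interval -0.64 to -0.25). Triap1, an apoptosis inhibitor gene, stood at 1.71 and 2.71 (log2 0.66, interval 0.26 to 1.07), and Ppm1d, a phosphatase that turns p53 off, at 4.47 and 5.73 (log2 0.36, interval 0.10 to 0.62). These 4 were named after their values were seen. Promoter medians around AT2 identity, AT1 identity and AP-1 genes were -0.25, -0.26 and -0.09.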

How the data were processed

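The deposited files used were 2 matrices, 1 per genotype, in which the same barcodes carry RNA and chromatin values. All values are raw counts, per the file headers: UMIs per gene and transposition counts per peak, with peaks called in each library on its own. Cell Ranger ARC 2.0.1, Seurat 4.1.0 and Signac 1.6.0 are named in the submitters' processing notes without a step, as are GRCm39 and GRCm38 without a role. Coordinates are 1-based on GRCm38, since the gene starts in the matrices coincide with RefSeq's on that build. Promoter sequences and the motif shares came from RefSeq's promoter table, and sequence of distal peaks was not analysed here.

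Limits on nuclei were a UMI total from 500 to 25000, 300 or more genes, a peak count total from 1000 to 100000, and under 20% mitochondrial UMIs. Kept nuclei held 9979852 peak counts in Control and 18192624 in CKO, with medians of 2705 and 3650 a nucleus. Scrublet called 12 and 0 doublets, so doublets were in effect not removed. The libraries shared 193 barcodes, 17 of them among the kept nuclei, and all were left in. Both libraries were clustered together on RNA (2000 variable genes, 30 components, 15 neighbours, Leiden 0.6) in scanpy 1.11.5 with leidenalg 0.10.2. A cluster took the name of the marker list with the highest mean log2 fold over the mean CPM of the other clusters, each counted once, if that score reached 0.3 and 3 markers were detected.

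Counts were summed per class over each library's own peaks in a shared region, where peaks overlapped by at least 1 base. Ratios between libraries used counts in shared regions as the total, and ratios between states of a library used all its peaks. Exact conditional-binomial 95% intervals were computed on counts divided by 2, a departure from the planned interval, because 81.6% and 84.6% of entries were even (a fragment with both ends in a peak counts 2). On simulated data (44223 regions, CKO over Control) intervals held the truth for 95.9% of unchanged regions. The direction was right for 97.2% of regions changed 1.5-fold and 100% of those changed 2-fold. The simulation drew Poisson fragments that each counted 2, as the interval assumes, so it checks the computation only. It held no odd counts, PCR copies or variation between nuclei or mice, and cannot show that the interval fits the real counts.

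Named regions were the promoter of each gene, the region with most counts in each window, and the 6 highest and 6 lowest by the interval bound nearest 0 (at least 200 counts) or by the smaller state ratio in both libraries (at least 100 counts in each). The members and lists were chosen with earlier results of these data known. Regions with an interval beyond 0 in both libraries, the Cdkn1a regions near its starts, the Mdm2 region at -10884 bases and the wider-list genes named were picked after their values were seen. Alternatives covered scaling, count minimum, window, nuclei filters, clustering, overlap and state makeup. Computations ran in Python 3.11.15 with numpy 2.4.6, scipy 1.17.1, pandas 2.3.3 and matplotlib 3.10.9.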

Additional observations from a re-analysis of the deposited data

Results flagged for a closer look

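Among member regions with at least 100 counts in each library, 2 had state ratios of opposite direction in the libraries, by 1.5-fold or more in each. The region at -3122 bases from Sesn2 gave a log2 ratio of transitional-like over AT2-like nuclei of -1.29 in Control and 0.63 in CKO. The region at 18048 bases from Btg2 gave a log2 ratio of AT1-like over AT2-like nuclei of -1.23 in Control and 0.64 in CKO. The Control ratios rest on 10 transitional-like counts at Sesn2 and 9 AT1-like counts at Btg2. With 1 library per genotype the differences between the libraries were not tested.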

How the results depend on the processing

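No paired analysis was possible because each genotype had 1 joint library and no replicate numbers. For the 12 main values, 104 of 130 alternatives stayed within the interval of the main value. For the medians this was an interval of the median over regions, which are not replicates, and not the counting interval. The median over members, CKO over Control, moved from 0.087 to -0.05 with at least 200 counts (13 regions higher, 6 lower), 0.18 with at least 50 (84 and 13), -0.076 for regions nearest a member's start, -0.044 with nuclei in place of counts (11 and 2), 0.28 without the mitochondrial limit (87 and 10) and 0.31 with no filter beyond 200 UMIs and 200 peak counts (112 and 11). In AT2-like nuclei, in the same order, it moved from 0.015 to -0.12, 0.14, -0.21, -0.15, 0.19 and 0.26, and to -0.11 in a 50 kb window. In transitional-like nuclei it moved from -0.067 to -0.34 with at least 200 counts, -0.26 with nuclei in place of counts and 0.087 with no filter, and in AT1-like nuclei from -0.14 to -0.28 with nuclei in place of counts and 0.072 without the mitochondrial limit. The last 2 filters also changed the classes. Without the mitochondrial limit an unnamed cluster of 2336 and 350 nuclei fell outside the alveolar class. With no filter, unnamed clusters of 3458 and 107 and of 1822 and 38 nuclei did. The AT1-like cluster without the limit scored 0.97 on AT1 and 0.94 on transitional markers. The transitional-like cluster with no filter scored 0.97 on transitional and 0.96 on AT1 markers.

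Ratios of AT1-like over AT2-like nuclei moved in Control from -0.14 to 0.015 with median-of-ratios scaling, -0.012 without the mitochondrial limit and -0.049 with nuclei in place of counts, and in CKO from -0.047 to 0.029 with median of ratios, 0.07 for regions nearest a member's start and 0.054 without the mitochondrial limit. Transitional-like over AT2-like in CKO moved from 0.085 to 0.17 in a 50 kb window. The wider list moved to 0.16 with at least 50 counts, an alternative added after seeing the data, as were scaling to promoters, leaving out the Gdf15 window and leaving out nuclei with a Cdkn1a UMI. The cause of these moves was not tested.

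The promoter median ranged from -0.40 to -0.16 over its alternatives. Single promoters kept their sign in 272 of 279 alternatives, the exceptions being Mdm2 (to 0.14), Phlda3 (to -0.048) and Cdkn1a (to -0.39 with Control weighted to the CKO state makeup). Cdkn1a reached 1.79 and Bax 0.54 without the mitochondrial limit, and 1.57 and 0.65 with no filter. Not run for want of a class were transitional-like values without the mitochondrial limit, and AT1-like values with no filter or at Leiden resolution 0.4. Depth limits single promoters too, as intervals of Trp53 (178 and 226 counts) and Fas (346 and 246) span more than 1.5-fold.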
